A study of Mus musculus with 6 samples.

Results

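CC chemokines are small secreted proteins named for a pair of neighbouring cysteines. The transcripts of 10 CC chemokine genes that macrophages are known for were followed here, Ccl2, Ccl3, Ccl4, Ccl5, Ccl6, Ccl7, Ccl9, Ccl12, Ccl22 and Ccl24. They were chosen by symbol from the 24394 gene symbols in the files, and the values of all lines with one of these symbols were summed per library. Bone marrow-derived macrophages (BMMs) of C57BL/6 mice at postnatal day 28, males per the methods, were sequenced after 24 h in culture. All cells were grown from marrow monocytes for 7 days in medium with macrophage colony-stimulating factor at 50 ng/ml. The 3 cartilage fragment libraries came from BMMs that had received 5 fragments of crushed femoral head cartilage per macrophage, and the 3 control libraries came from BMMs cultured alone. Nothing in the labels says that the libraries of a group came from separate mice or cultures, so each p measures only the spread between these libraries, which may be technical.

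CC chemokines leave the cell, bind to matrix and draw leukocytes along their gradient through receptors with 7 membrane passes that couple to G proteins. Ligands and receptors match loosely, in that one receptor binds several ligands and one ligand several receptors. Macrophages both make and sense them. In an inflamed joint, Ccl2 and Ccl7 are known to call monocytes through Ccr2, while Ccl3 and Ccl5 act on Ccr1. Ccl6 and Ccl9 are rodent ligands that resting macrophages already make and that act on Ccr1.

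The feature that names the family can be read in the coding sequence. Each line below gives 36 bases of the spliced coding strand of 1 of 6 members with a measured level, from the GRCm38 gene annotation, and the capitals mark the codons of the neighbouring cysteines.
Ccl5: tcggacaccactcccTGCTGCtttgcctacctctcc
Ccl9: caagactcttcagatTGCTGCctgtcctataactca
Ccl6: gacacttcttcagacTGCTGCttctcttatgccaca
Ccl4: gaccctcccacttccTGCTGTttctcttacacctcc
Ccl2: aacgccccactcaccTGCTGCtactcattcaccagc
Ccl7: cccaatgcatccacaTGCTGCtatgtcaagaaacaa
The capitals of Ccl5 lie at chr11:83529242-83529247 (minus strand) in exon 2 of 3, those of Ccl9 at chr11:83575926-83575931 (minus strand) and those of Ccl6 at chr11:83589386-83589391 (minus strand), each in exon 3 of 4. The other 3 members shown have 3 exons, with the capitals in exon 2. The longest run of identical bases between the transcripts of any pair of members was 25 bases, between Ccl6 and Ccl9, and it was 23 bases between Ccl2 and Ccl7, against reads of 100 bases.

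Ccl22 and Ccl24 apart, the members form a cluster on chromosome 11. In the files, on the mm10 build, it runs from Ccl2 (chr11:82035577-82037452) and Ccl7 (chr11:82045712-82047523) through Ccl12 (chr11:82101845-82103399), Ccl5 (chr11:83525779-83530518), Ccl9 (chr11:83572917-83578636), Ccl6 (chr11:83587886-83593087) and Ccl3 (chr11:83647843-83649378) to Ccl4 (chr11:83662584-83664683). Ccl22 lies at chr8:94745684-94751388 and Ccl24 at chr5:135569937-135573043. Each member is a single reference transcript in the files, and 0 transcripts assembled in a library overlapped a member.

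The values are FPKM, the fragments of a transcript scaled to its length and to the depth of the library. From the coverage listed beside each FPKM, a library rested on an estimated 699131 to 776270 fragments. The number of fragments behind each value was estimated from that total with a fitted fragment length. This depth is far below the one given in the methods, the gap could not be settled from the files, and every fragment number and its interval below rests on the estimate. Macrophage markers were present in all libraries (summed 29520 to 39241 FPKM in controls and 30119 to 40366 with cartilage fragments), and of the 8, Adgre1 and Cd14 passed the test as higher. Most of that sum was Lyz2 (26780 to 36623 FPKM in controls and 26944 to 37370 with cartilage fragments). Chondrocyte markers summed to 4.22 FPKM at most, with Acan and Col2a1 at or near 0, and 7 of those 12 were listed at 0 in every library. Of the 8 T and B cell markers 6 were listed at 0 throughout, Cd3e among them. The 6 fibroblast markers summed to 155 to 169 FPKM in controls and to 103 to 119 FPKM with cartilage fragments, without overlap. The sums came mainly from Col1a1 (74.4 to 87.4 and 43.6 to 50.7 FPKM) and Col1a2 (71.8 to 86.4 and 56.4 to 62.6 FPKM), each without overlap. None of the 4 tested passed (limma adjusted p of 0.0849 for Col1a1 and 0.290 for Col1a2), although the study lists both as lower. The part of this difference in the values below was not tested. Neutrophil markers were present too and summed to 829 to 953 FPKM in controls and to 758 to 1130 FPKM with cartilage fragments, mainly through S100a8 and S100a9. The sums of neutrophil, dendritic cell, and eosinophil, basophil and mast cell markers overlapped between the groups, and red cell markers were listed at 0. In bulk RNA, fewer cells of a kind and less RNA per cell cannot be told apart.

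Of the 10 members, 7 averaged 1 FPKM or more over the libraries and were tested, with limma on log2(FPKM + 0.1) fitted over 10393 genes and with Benjamini-Hochberg adjustment. At an adjusted p under 0.05, 1 member was higher with cartilage fragments, Ccl5, against 0.308% of all genes tested, and 0 were lower, against 0.0577% (0.366% in either direction). Without adjustment 3 members had a p under 0.05 (Ccl5, Ccl9 and Ccl6), against 9.19% of all genes. The libraries of the groups did not overlap for 4 members, against 15.9% of all genes: Ccl2, Ccl5 and Ccl9 lay higher with cartilage fragments (9.04% of all genes) and Ccl6 lower (6.89%). For Ccl2 the gap rests on few estimated fragments, with equal numbers in control replicate 1 and cartilage fragment replicates 1 and 3. The median log2 fold change of the 7 members was 0.39, beside 0.0037 over all genes.

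**Figure D1:**
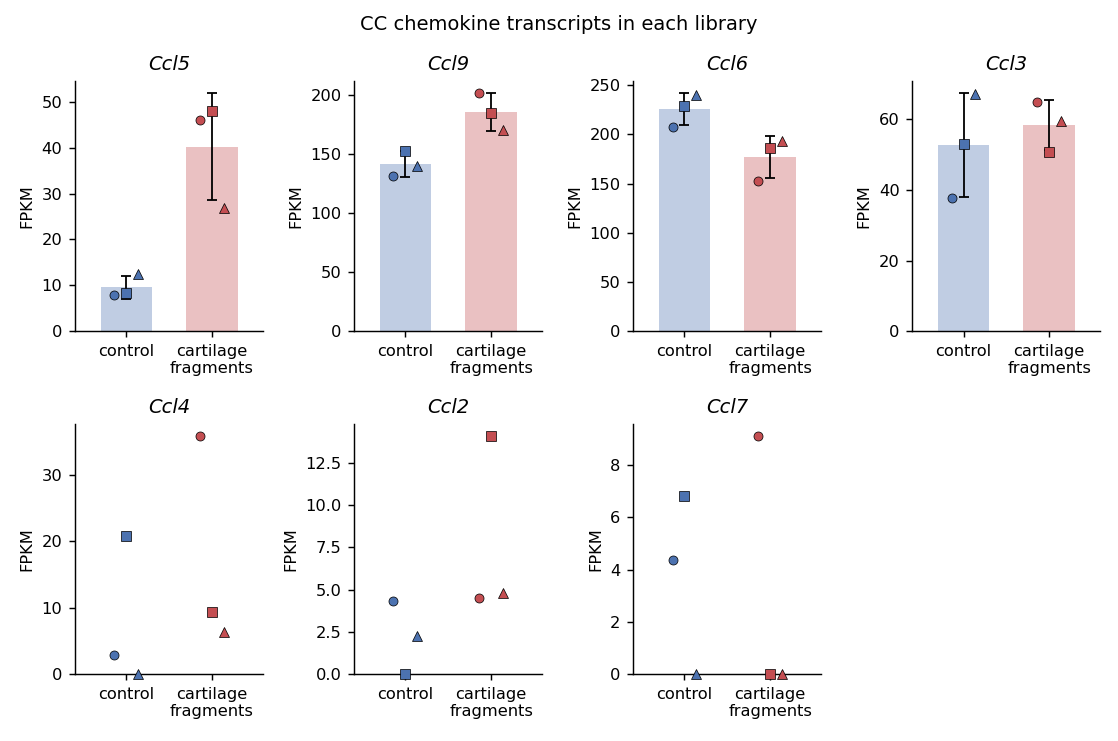
FPKM (vertical axes, each from 0) of the 7 tested CC chemokine members in the 3 control and the 3 cartilage fragment libraries. Points are libraries, with circle, square and triangle for replicates 1, 2 and 3, and bars with error bars are the mean and SD, drawn only for members above 0 in all 6 libraries. The cartilage points of Ccl5 (26.8 to 47.9) and Ccl9 (170 to 202) lie above the control points, those of Ccl6 (153 to 193) below them, those of Ccl3 fall inside the range of the controls, and those of Ccl4 and Ccl7 overlap with it.

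Ccl5 (NM_013653), also known as RANTES, is a ligand of Ccr1 and Ccr3 that draws T cells and monocytes. It stood at 7.96, 8.33 and 12.5 FPKM in control replicates 1, 2 and 3 and at 46.0, 47.9 and 26.8 FPKM in cartilage fragment replicates 1, 2 and 3. Even the lowest cartilage library, replicate 3, was above the highest control. Ccl5 rose from 9.59 ± 2.50 to 40.2 ± 11.7 FPKM (SD, n = 3), a 4.20-fold ratio of the means. Its log2 fold change on the log2(FPKM + 0.1) scale was 2.04 (standard error, SE, 0.281, limma adjusted p = 0.0305).

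By this estimate few fragments lay behind the values of Ccl5. The controls held 2, 2 and 3 fragments and the cartilage libraries 11, 11 and 6, which sum to 7 and 28. Scaled to the depth of the libraries the ratio of the sums was 4.18, with an exact 95% interval of 1.79 to 11.3 that covers counting error only. The coefficient of variation between the controls was 26.1%, below the 65.5% that counting alone gives at this depth, and it was 29.0% against 32.7% in the cartilage libraries. The call of Ccl5 held in 11 of 19 other ways of processing, and with 1 library left out at a time it held without control replicate 3 (limma adjusted p = 0.0407) and without cartilage fragment replicate 3 (0.0221). It was lost without control replicate 1 (limma adjusted p = 0.111), control replicate 2 (0.114), cartilage fragment replicate 1 (0.199) or cartilage fragment replicate 2 (0.139), while the log2 fold change stayed between 1.89 and 2.31. In scaled fragments, the estimated fragments divided by those of the library, its adjusted p was 0.0628.

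The genes whose log2 values followed Ccl5 most closely over the 6 libraries, among 5519 genes averaging 10 FPKM or more, were Itgb2, Fgr, Mmp14, Ly6c2 and Cfl1, with Pearson's r of 0.990, 0.989, 0.989, 0.986 and 0.986. The 6 points of each share their libraries and the step between the groups, so these values are descriptions. In each of the 5 the cartilage libraries lay above the controls. Ly6c2, a surface antigen of inflammatory monocytes with a near-identical neighbouring copy that could share its reads, was at 28.7 ± 8.61 FPKM in controls and 115 ± 24.1 FPKM with cartilage fragments (SD, n = 3; log2 fold change 2.02, limma adjusted p = 0.0190). Mmp14, a membrane-bound matrix metalloproteinase, was at 67.3 ± 7.08 and 141 ± 21.4 FPKM (log2 fold change 1.06, limma adjusted p = 0.0277). Itgb2, the shared beta chain of leukocyte integrins, Fgr, a Src-family kinase, and Cfl1, an actin-severing protein, did not pass.

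Ccl9 (NM_011338) and its neighbour Ccl6 (NM_009139) were the most abundant members in every library, and with cartilage fragments they lay on opposite sides of their controls. Ccl9 stood at 131, 153 and 140 FPKM in the controls and at 202, 185 and 170 FPKM in the cartilage libraries. Every cartilage library lay above every control. The group values were 141 ± 11.0 and 186 ± 15.9 FPKM (SD, n = 3), and the log2 difference came to 0.39 (SE 0.099), which did not pass (limma adjusted p = 0.212).

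Ccl6 stood at 208, 229 and 240 FPKM in the controls and at 153, 186 and 193 FPKM in the cartilage libraries. Here every cartilage library lay below every control, with replicate 1 the lowest in each group. The group values were 226 ± 16.4 and 177 ± 21.2 FPKM (SD, n = 3), and the log2 difference came to -0.35 (SE 0.108), which did not pass either (limma adjusted p = 0.333).

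Both genes rest on far more fragments than Ccl5. Ccl9 had 285, 323 and 291 fragments in the controls and 425, 373 and 332 with cartilage fragments, and the depth-scaled ratio of the sums, 899 and 1130, was 1.31 (exact 95% interval 1.20 to 1.44, counting error only). Ccl6 had 197, 211 and 218 fragments in the controls against 140, 163 and 164, sums of 626 and 467, and a ratio of 0.780 (0.691 to 0.881). Taken as scaled fragments in the same fit, where 2.2% of all genes passed, Ccl9 was the 1 member that passed (limma adjusted p = 0.00382) and Ccl6 was at 0.0651. In the alternatives that kept FPKM, the limma adjusted p lay between 0.157 and 0.582 for Ccl9 and between 0.262 and 0.643 for Ccl6. In all 19 alternatives, the log2 fold change of Ccl9 was above 0 (0.33 to 0.45) and that of Ccl6 below 0 (-0.42 to -0.25). Leaving out 1 library could not turn these signs, as the groups did not overlap. Several other alternatives, such as the filters and the replicate block, left both estimates unchanged. The study chose its own lists of changed genes on these libraries and has Ccl9 among the higher and Ccl6 among the lower ones, so these directions are not independent evidence. Ccl5, the member called here in FPKM, is in neither of those lists, while Ccl9 and Ccl6, which did not pass in FPKM, are. Why the calls differ was not tested.

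**Figure D2:**
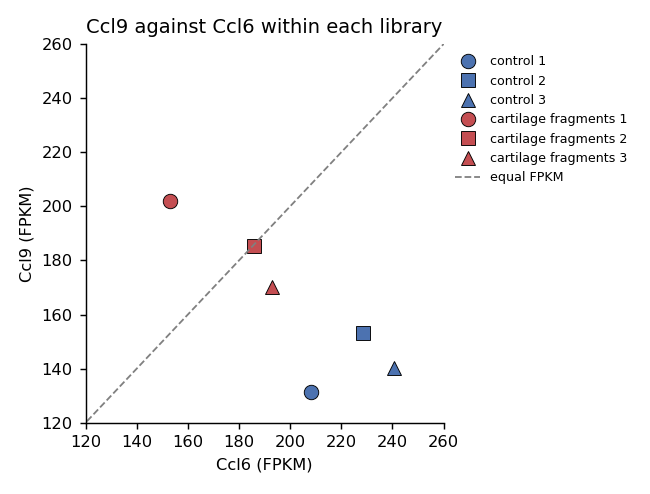
FPKM of Ccl9 (vertical axis) against FPKM of Ccl6 (horizontal axis), 1 point per library, both axes from 120 to 260, with control libraries in blue, cartilage fragment libraries in red and the dashed line at equal values. The 3 controls lie well below the line (Ccl6 208 to 240, Ccl9 131 to 153), and of the cartilage libraries replicate 1 lies above it, replicate 2 on it and replicate 3 just below it.

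The balance of the pair was also taken within each library, where the scaling of the library cancels. The log2 ratio of Ccl9 to Ccl6 was -0.66, -0.58 and -0.78 in the controls and 0.40, -0.0039 and -0.18 in the cartilage libraries. The highest control lay below the lowest cartilage library. The mean was -0.67 ± 0.101 in controls and 0.07 ± 0.298 with cartilage fragments (SD, n = 3), a difference of 0.75. The exact two-sided permutation test over the libraries gave p = 0.1, the smallest that 3 libraries against 3 allow. Ccl9 lay above and Ccl6 below its controls in every cartilage library, so the ratio had to separate the groups. This p was thereby fixed and adds nothing to the values of each gene. The pair was also chosen knowing that the study lists Ccl9 as higher and Ccl6 as lower. With 1 library left out the difference stayed between 0.58 (without cartilage fragment replicate 1) and 0.87. Summed, the pair stood at 367 ± 24.2 FPKM in controls and 363 ± 7.98 FPKM with cartilage fragments, a difference below the SD of the controls.

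The sequence upstream of the 2 genes is shown because they are neighbours on one strand and lay on opposite sides of their controls. The 250 bases before the RefSeq start (GRCm38.p6, minus strand) are chr11:83578637-83578886 for Ccl9 and chr11:83593088-83593337 for Ccl6. Capitals mark matches to 5 motifs, of which Ccl6 has none.
Ccl9: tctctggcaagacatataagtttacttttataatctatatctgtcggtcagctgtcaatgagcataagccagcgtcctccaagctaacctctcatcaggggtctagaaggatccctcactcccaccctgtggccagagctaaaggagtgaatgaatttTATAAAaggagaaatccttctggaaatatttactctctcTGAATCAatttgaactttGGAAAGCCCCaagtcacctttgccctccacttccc
Ccl6: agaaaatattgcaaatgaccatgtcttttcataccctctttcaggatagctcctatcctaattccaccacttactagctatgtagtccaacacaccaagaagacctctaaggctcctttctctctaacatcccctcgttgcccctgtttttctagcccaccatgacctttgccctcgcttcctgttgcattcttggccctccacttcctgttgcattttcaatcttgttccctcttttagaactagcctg
In Ccl9 the capitals are a TATAAA string 92 to 87 bases before the start, a match to the loose AP-1 string TGANTCA at 53 to 47 and a match to the NF-kB consensus at 35 to 26 on the opposite strand. None overlap, and no use of these matches was tested. The motifs searched were the NF-kB consensus, a loose form of AP-1 (TGANTCA, any base at the centre), C/EBP (TTGCNNAA) and the interferon response element (GAAA, any 2 bases, GAAA) on both strands. TATAAA was searched on the strand of the gene, at any distance from the start. Of 32851 RefSeq promoters of the same length, 3.90% hold the NF-kB consensus, 6.75% AP-1, 9.56% C/EBP, 2.98% the interferon element and 7.59% TATAAA, so each match is a description. Of the 5 members with a promoter in the RefSeq table, Ccl12 had a match to TATAAA, and Ccl3 and Ccl22 had no match.

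An annotated transcript, E230016K23Rik, runs over Ccl6 on the opposite strand. It was listed at 0 in 5 libraries and at 2.25 FPKM (3 fragments) in cartilage fragment replicate 3. Ccl6 held 140 to 218 fragments in the same libraries. The library kit keeps the strand, but the strand setting of the counting is not given in the sources used here.

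Ccl3 (NM_011337) and Ccl4 (NM_013652), the macrophage inflammatory proteins MIP-1 alpha and beta, lie side by side, and Ccl3 acts on Ccr1. Ccl3 stood at 37.7, 53.0 and 67.2 FPKM in the controls and at 64.8, 50.6 and 59.5 FPKM in the cartilage libraries. The cartilage values fell inside the range of the controls. The group values were 52.7 ± 14.7 and 58.3 ± 7.16 FPKM (SD, n = 3), and the log2 difference came to 0.18 (SE 0.214, limma adjusted p = 0.832). Without control replicate 1 the log2 fold change was -0.041. The fragments, 69 and 73 in all, gave a ratio of 1.11 (exact 95% interval 0.785 to 1.56).

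Ccl4 was listed at 2.85, 20.8 and 0 FPKM in the controls, or 1, 7 and 0 fragments. In the cartilage libraries it was listed at 35.8, 9.32 and 6.39 FPKM, or 12, 3 and 2 fragments. The ranges overlapped, and single libraries of both groups stood far from their partners. The fitted log2 fold change of 2.82 had an SE of 2.13 (limma adjusted p = 0.755), and the depth-scaled ratio of 8 to 17 fragments, 2.22, had an exact 95% interval of 0.909 to 5.95. The highest value, that of cartilage fragment replicate 1, carried the status LOWDATA in the files. With status OK lines alone this value was entered as 0 and not left out, and the log2 fold change was then -0.0049. Without that library it was 2.09. The 0 of control replicate 3 stands on a line whose locus was renamed by the assembly, and 114 of the 938 single reference lines of that kind in the library were listed at 0. An FPKM of 0 is not read as absence here. Of 80 ribosomal protein genes, 7 were also listed at 0 in at least 1 library, 5 of them in all libraries. Whether those 5 are truly absent was not tested, so they cannot show that a 0 hides a transcript.

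Ccl2 (MCP-1) and Ccl7 (MCP-3), the ligands of Ccr2 that bring monocytes out of the marrow, rested on few estimated fragments. Ccl2 was listed at 4.32, 0 and 2.26 FPKM in the controls (2, 0 and 1 fragments) and at 4.50, 14.1 and 4.83 FPKM with cartilage fragments (2, 6 and 2 fragments). The cartilage libraries lay above the controls, but control replicate 1 and cartilage fragment replicates 1 and 3 had the same number of fragments. Its log2 fold change of 2.76 had an SE of 1.38 (limma adjusted p = 0.600), and the ratio of 3 to 10 fragments was 3.49 (exact 95% interval 0.898 to 19.7). Ccl7 was listed at 4.37, 6.80 and 0 FPKM in the controls and at 9.11, 0 and 0 FPKM in the cartilage libraries, 5 fragments against 4. No direction could be read from Ccl7 at this depth (log2 fold change -1.69, SE 2.27, limma adjusted p = 0.849).

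The remaining 3 members were not tested. Ccl22, a ligand of Ccr4 that draws regulatory T cells, was listed at 0.809 FPKM in control replicate 1 (1 fragment) and at 0 in the other 5 libraries. Ccl12, the mouse MCP-5, and Ccl24, an eotaxin that draws eosinophils through Ccr3, were listed at 0 in all 6.

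Together the 10 members held 397, 471 and 463 FPKM in the controls and 515, 493 and 461 FPKM in the cartilage libraries. The ranges overlapped, with 443 ± 40.2 and 490 ± 27.5 FPKM (SD, n = 3), or a log2 ratio of the means of 0.14 beside a largest SD of 0.13 for the log2 sums of a group. The make-up of the sum differed more than its size. Ccl6 took 51.0 ± 2.08% of it in controls and 36.4 ± 6.18% with cartilage fragments, Ccl9 32.0 ± 1.46% and 37.9 ± 1.16%, and Ccl5 2.16 ± 0.480% and 8.16 ± 2.06%. The share of Ccl3 was 11.8 ± 2.56% and 11.9 ± 1.44%. These shares are parts of one sum and are not independent of each other.

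**Figure D3:**
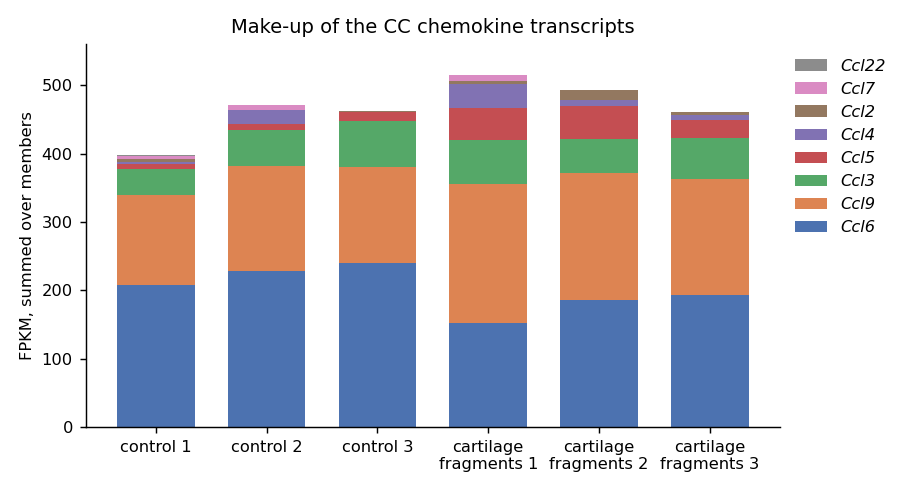
FPKM (vertical axis) of the CC chemokine members stacked to their sum in each of the 6 libraries (horizontal axis), 1 colour per member, with Ccl12 and Ccl24 left out because they were listed at 0. Ccl6 and Ccl9 made up 81.1% to 85.4% of the sum in the controls and 68.9% to 78.8% in the cartilage libraries, and the band of Ccl5 is wider in every cartilage library.

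In the controls the order of the levels, per length, was Ccl6, Ccl9, Ccl3 and then Ccl5, with ranges that did not overlap between these neighbours. Below Ccl3, Ccl5 (7.96 to 12.5 FPKM) could not be ordered against Ccl4 (0 to 20.8). With cartilage fragments Ccl9 (170 to 202) and Ccl6 (153 to 193) were not apart, followed by Ccl3 (50.6 to 64.8) and Ccl5 (26.8 to 47.9), whose ranges did not meet. Ccl5 overlapped with Ccl4 (6.39 to 35.8) there too. In every cartilage library Ccl5 ranked 4 among the members, as it did in control replicates 1 and 3. In control replicate 2 it ranked 5.

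Of 14 other CC chemokine ligands, 11 were listed at 0 in every library, and of the 2 tested, Ccl8 and Ccl25, 0 passed. Ccl8 (MCP-2), which lies in the same cluster, had a higher FPKM than Ccl3 in 5 of 6 libraries and than Ccl5 in all 6. Per length it stood at 50.9, 111 and 79.6 FPKM in the controls and at 53.6, 69.6 and 71.4 FPKM in the cartilage libraries. Its ranges overlapped (log2 fold change -0.25, SE 0.269, limma adjusted p = 0.811).

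Of 15 receptors and decoy receptors of the CC family, 7 were listed at 0 in every library and 4 were tested, with 0 past the threshold. Ccr2, the receptor of Ccl2 and Ccl7, stood at 15.2, 12.2 and 12.8 FPKM in the controls and at 7.93, 6.82 and 8.54 FPKM with cartilage fragments. Every cartilage library lay below every control (13.4 ± 1.55 and 7.76 ± 0.872 FPKM, SD, n = 3). The log2 value differed by -0.78 (SE 0.201, limma adjusted p = 0.221), and the ratio of 103 to 57 fragments was 0.579 (exact 95% interval 0.411 to 0.808).

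Ccr1, a receptor of Ccl3, Ccl5, Ccl6 and Ccl9, stood at 19.8, 28.0 and 23.3 FPKM against 22.0, 22.4 and 18.7 FPKM, and its groups overlapped (log2 fold change -0.16, limma adjusted p = 0.822). Ccrl2, an atypical receptor that binds chemerin, stood at 9.17, 11.2 and 7.85 FPKM in the controls and at 14.7, 14.4 and 14.9 FPKM with cartilage fragments. It was the 1 tested receptor whose cartilage libraries lay above the controls (log2 fold change 0.65, SE 0.200, limma adjusted p = 0.335). The receptors Ccr4, Ccr6, Ccr8 and Ccr9 were listed at 0 in all libraries.

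**Figure D4:**
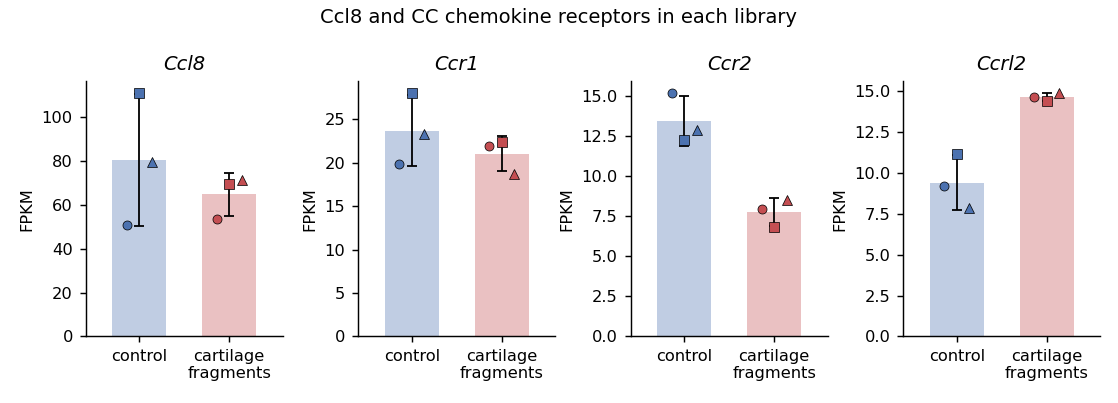
FPKM (vertical axes, each from 0) of Ccl8, Ccr1, Ccr2 and Ccrl2 in the control and cartilage fragment libraries, with points for libraries (circle, square and triangle for replicates 1, 2 and 3) and bars with error bars for mean and SD. The cartilage points of Ccr2 (6.82 to 8.54) lie below the controls and those of Ccrl2 (14.4 to 14.9) above, while Ccl8 and Ccr1 overlap, and 0 of the 4 genes passed the test.

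Among 24 genes that carry the signal of chemokine receptors, from G proteins and arrestins to Rac and Rap, all were tested, 0 passed and the median log2 fold change was 0.04. In 4 the cartilage libraries lay above the controls (9.04% of all genes) and in 1 below (6.89%). Gnai3, a G protein alpha subunit, stood at 36.6 ± 2.46 and 43.5 ± 1.87 FPKM (SD, n = 3; log2 fold change 0.25, limma adjusted p = 0.608). Ptk2b, the kinase Pyk2, stood at 60.7 ± 3.25 and 52.1 ± 0.674 FPKM (log2 fold change -0.22, limma adjusted p = 0.600).

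Chemokine messengers are short-lived, and RNA-binding proteins that recognise AU-rich or stem-loop elements set how long they last. Of 10 such genes, all were tested and 0 passed, with a median log2 fold change of -0.05, 1 with groups apart upward (9.04% of all genes) and 2 downward (6.89%). Zfp36l1 and Zfp36l2, which bring AU-rich messengers to decay, stood at 30.8 ± 4.99 and 125 ± 6.08 FPKM in controls and at 19.9 ± 2.44 and 102 ± 6.76 FPKM with cartilage fragments (SD, n = 3; adjusted p = 0.300 and 0.397 from limma). Zc3h12c, a relative of the RNase Regnase-1, stood at 2.98 ± 1.04 and 6.40 ± 1.05 FPKM (log2 fold change 1.11, limma adjusted p = 0.308). In scaled fragments Zc3h12c passed (limma adjusted p = 0.0256), with 0.0544 for Zfp36l2 and 0.0555 for Zfp36l1.

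**Figure D5:**
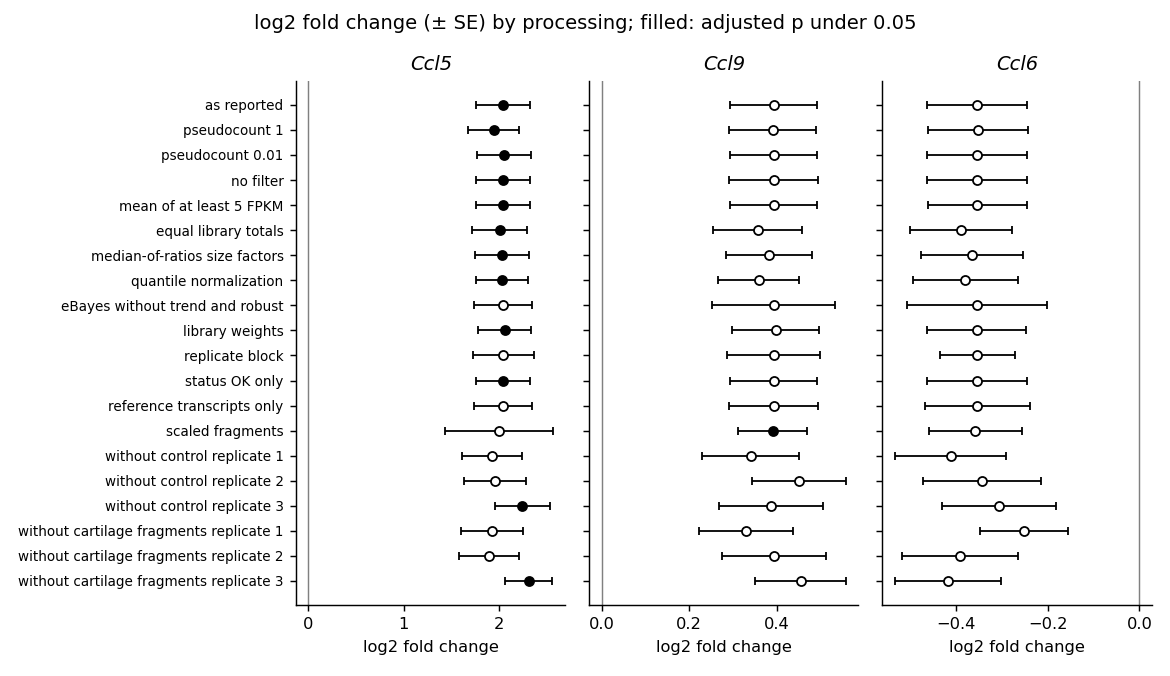
log2 fold change with its SE (horizontal axes) of Ccl5, Ccl9 and Ccl6 as reported and under 19 alternatives (vertical axis), filled where the adjusted p from limma was under 0.05. Ccl5 stays near 2 and is filled in 11 of the alternatives, Ccl9 stays between 0.33 and 0.45 and is filled in 1, and Ccl6 stays between -0.42 and -0.25 and is filled in 0.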

How the data were processed

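RNA-seq libraries of BMMs, 3 control and 3 with cartilage fragments, were analysed, grouped by the treatment in the labels. Read pairs (100 bp each end) were mapped by the authors to mm10 using TopHat and Bowtie. The deposited FPKM are Cufflinks values per transcript of each library, with the coverage (mean read depth, the deposited signal) beside them. Versions and the strand setting are not given in the sources used here, and whether the TMM step that the methods name was applied cannot be told from the values. Positions are those of the files with 1 added to each start.

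FPKM were summed per symbol, a transcript assembled in a library taking the symbol of its locus where the locus had 1 symbol (7.03% to 10.4% of the FPKM of a library had none). Fragments were estimated from coverage, FPKM, read length and a mean fragment length of 215 or 220 bases. That length was chosen in each library to bring the most values under 6 fragments within 0.1 of a whole number. The share reached, 94.7% to 95.4%, is thus the result of a fit and not a check of the estimate. Genes averaging 1 FPKM or more were tested with limma 3.58.1 in R 4.3.3 (eBayes with trend and robust) on log2(FPKM + 0.1), two-sided, at an adjusted p of 0.05. Ratios of fragments have exact conditional binomial intervals. Python 3.11.15 with numpy 2.4.6, pandas 2.3.3, matplotlib 3.10.9 and scipy 1.17.1 was used for the other steps. Promoters are from RefSeq, coding sequences from GENCODE M21.

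Some items of the lists are not reported here. Named are all 10 members, tested genes of the other lists where a count needed them, markers at 0 or moving with the groups, and the 5 genes most like the member with the smallest p. The members and lists were chosen with earlier results of these data known. Alternatives changed the pseudocount, filter, scaling, moderation, weights, block, lines and unit, or left out 1 library.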

Additional observations from a re-analysis of the deposited data

How the results depend on the processing

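The count of members past the threshold, 1 as reported, was 0 under eBayes without trend and robust, with reference transcripts only and with the replicate block, and ranged from 0 to 1 with 1 library left out. It was also 1 in scaled fragments, but there the member was Ccl9 and not Ccl5. Over all genes, 38 passed as reported, 18 under eBayes without trend and robust, 19 with reference transcripts only, 229 in scaled fragments (151 higher and 78 lower, against 32 and 6), and 8 (without cartilage fragment replicate 1) to 30 with 1 library left out. The messenger decay genes went from 0 to 1 in scaled fragments, through Zc3h12c. The log2 fold change of Ccl3 turned from 0.18 to -0.041 without control replicate 1 (-0.041 to 0.37 with 1 library left out). That of Ccl4 went from 2.82 to -0.0049 with status OK lines only, where its LOWDATA value was entered as 0. Neither gene passed in any setting. What drove the other shifts was not tested. The counts of other ligands, receptors and signalling genes stayed at 0 in all 19 alternatives, and the Ccl9 to Ccl6 ratio kept its direction in all 11 of its alternatives. With groups that did not overlap, leaving out 1 library could not turn that direction. Status OK lines and reference transcripts alone left the ratio unchanged.

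Both groups carry replicate numbers 1 to 3, but neither the labels nor the methods pair them, so the numbers were not taken as pairs. The deviations of libraries with the same number correlated at -0.018, -0.0024 and 0.0099, and those with different numbers at -0.047 to 0.050. These values cannot decide whether pairs exist, since counting error at this depth also brings them towards 0. With the replicate block 18 genes passed (17 higher and 1 lower) and 0 members, with a limma adjusted p of 0.143 for Ccl5. For Ccl5 it was 0.215 under eBayes without trend and robust and 0.152 with reference transcripts only. Depth limits Ccl2, Ccl4, Ccl5 and Ccl7, which rest on 28 fragments or fewer in each group, and the filter of at least 5 FPKM leaves 5 members to test, without Ccl2 and Ccl7.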
